A study of Mus musculus with 14 samples.

Results

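The genes described here are 10 immediate early and heat shock genes, chosen by symbol: *Fos*, *Fosb*, *Jun*, *Junb*, *Egr1*, *Atf3*, *Hspa1a*, *Hspa1b*, *Dusp1* and *Ier2*. Of these, 9 had values among the 15894 genes listed for the fetal mouse epicardium and subepicardium, and *Fosb* was not analysed here. Their levels were followed library by library, between the ventral and dorsal side of the heart within each sex, and between the sexes.

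Immediate early genes are transcribed within minutes of a stimulus, from transcription factors already present in the cell, and their mRNAs are short-lived. *Fos*, *Jun* and *Junb* encode subunits of AP-1, a dimeric transcription factor, and *Atf3* encodes a CREB family factor that can pair with Jun proteins. *Egr1* encodes a zinc finger transcription factor downstream of serum response factor, *Ier2* a small nuclear protein of the same response, and *Dusp1* a phosphatase that removes phosphate from MAP kinases and so limits the signal. *Hspa1a* and *Hspa1b* are neighbouring, near-identical genes for the inducible HSP70 chaperone, which is driven by heat shock factor. The group is widely known to be raised by cutting, warming or enzymatic treatment of tissue as well as by growth factors, and all libraries here came from dissected tissue, so no level could be set against undissected tissue.

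RNA was measured in the dissected layer of E16.5 hearts, from poly(A) RNA sequenced as single reads of 60 bases. Each of the 14 libraries held RNA of a pool of 2 hearts. All libraries carry the genotype Tbx18Cre in their labels, a Cre allele at a gene active in the epicardium, while the study describes the hearts of its regional comparison as wild type; no agent was given to any group. There were 3 female ventral libraries (pools 1 to 3), 3 female dorsal libraries (pools 1 to 3), 4 male ventral libraries (pools 4 to 7) and 3 male dorsal libraries (pools 4 to 6). A further male library, of pool 7, is named dorsal in some labels and ventral in another. It is called the unsettled library below and entered no main test. Because pools 1 to 3 are all female and pools 4 to 7 all male, sex cannot be told apart from the series of pools.

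Between 13918995 and 25221314 reads per library fell on the listed genes, so that 3 reads corresponded to between 0.135 and 0.253 normalized CPM, the unit of every level below. Markers of the labelled tissue were present in all 14 libraries, *Wt1* at 26.4 to 216 and *Tbx18* at 19.5 to 98.7, beside cardiomyocyte mRNA such as *Myh7* at 3203 to 9612. The library male ventral 7 stood apart: its *Hba-a1* level, a haemoglobin mRNA of red cells, was 33422 against at most 11226 elsewhere, and the endothelial *Pecam1* was 12.4 against at least 54.9. Several results that rest on it are given with and without it. Spreads within groups and correlations between genes include it and were not computed without it. In bulk tissue, fewer cells of a type and less RNA per cell cannot be told apart.

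Promoter sequences are shown for the members whose regional change in female hearts passed the test and for the *Hspa1a* and *Hspa1b* pair. *Ier2* and *Egr1* are named only, and their promoters entered no count of members with a match. RefSeq sequence of GRCm38.p6, from 250 bases before to 50 bases after the start, was used for the other 7 of the 9 measured members. Each sequence shown is printed 5′ to 3′ on the gene's own strand. Capitals mark matches, on either strand, to the cyclic AMP response element or CRE (TGACGTCA), the shorter core of the CRE (TGACG), the TATA box (TATAAA) and the inverted repeat of heat shock elements (GAANNTTC).
*Fos* (chr12:85473640-85473939, plus strand): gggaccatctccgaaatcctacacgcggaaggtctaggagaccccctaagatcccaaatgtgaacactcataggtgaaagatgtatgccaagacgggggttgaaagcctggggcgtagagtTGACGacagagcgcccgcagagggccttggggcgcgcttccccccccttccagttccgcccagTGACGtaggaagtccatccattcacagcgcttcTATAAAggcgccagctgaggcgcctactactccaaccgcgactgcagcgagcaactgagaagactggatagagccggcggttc
*Jun* (chr4:95052173-95052472, minus strand): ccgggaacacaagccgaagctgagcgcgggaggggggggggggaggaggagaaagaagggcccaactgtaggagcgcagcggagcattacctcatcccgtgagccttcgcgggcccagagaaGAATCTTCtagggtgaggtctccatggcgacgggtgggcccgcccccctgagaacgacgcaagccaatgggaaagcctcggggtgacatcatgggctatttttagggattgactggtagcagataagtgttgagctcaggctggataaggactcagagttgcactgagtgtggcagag
*Dusp1* (chr17:26508423-26508722, minus strand): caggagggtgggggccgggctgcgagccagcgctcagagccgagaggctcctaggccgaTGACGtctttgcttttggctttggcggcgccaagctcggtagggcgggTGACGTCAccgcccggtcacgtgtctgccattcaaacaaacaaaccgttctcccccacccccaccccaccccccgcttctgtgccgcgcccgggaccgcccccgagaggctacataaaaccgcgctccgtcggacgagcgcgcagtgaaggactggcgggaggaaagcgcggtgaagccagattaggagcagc
*Hspa1a* (chr17:34972107-34972406, minus strand): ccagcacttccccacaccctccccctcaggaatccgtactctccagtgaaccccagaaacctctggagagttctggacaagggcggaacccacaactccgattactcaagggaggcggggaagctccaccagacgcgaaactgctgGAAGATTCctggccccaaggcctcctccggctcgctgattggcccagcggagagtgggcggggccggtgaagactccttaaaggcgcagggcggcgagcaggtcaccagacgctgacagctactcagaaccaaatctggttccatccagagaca
*Hspa1b* (chr17:34959189-34959488, minus strand): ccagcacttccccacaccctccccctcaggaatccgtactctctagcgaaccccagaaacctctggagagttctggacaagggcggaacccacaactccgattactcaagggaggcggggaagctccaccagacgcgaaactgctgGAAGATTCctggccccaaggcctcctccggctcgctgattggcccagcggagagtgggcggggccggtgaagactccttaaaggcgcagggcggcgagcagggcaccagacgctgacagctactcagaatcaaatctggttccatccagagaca
Positions count from 0 at the start base. The *Fos* window held the CRE core at -129 to -125 and at -66 to -62, and a TATA box at -33 to -28. The *Dusp1* window held a whole CRE at -143 to -136, which contains the core on both strands, and a further core at -191 to -187. A CRE was present in 1.8% of 32544 promoter windows and in 1 of the 7 of members, and the core in 20.9% of windows and in 4 of 7 (*Fos*, *Dusp1*, *Junb* and *Atf3*). GAANNTTC was present in 7.89% of windows and in 3 of 7. In *Hspa1a* and *Hspa1b* it lay at the same place, -104 to -97, and in *Jun* at -128 to -121. The windows of *Hspa1a* and *Hspa1b* matched at 296 of 300 bases. The AP-1 letters TGANTCA (7.79% of windows) and the CArG box of serum response factor (1.64%) had no match in these 7 windows. TATAAA was present in 13.6% of windows and in 2 of 7, *Fos* and *Junb*. In *Junb*, whose window is not printed, it lay at 0 to 5, at the annotated start itself. The matches describe the letters of these windows and do not show binding.

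**Figure D1:**
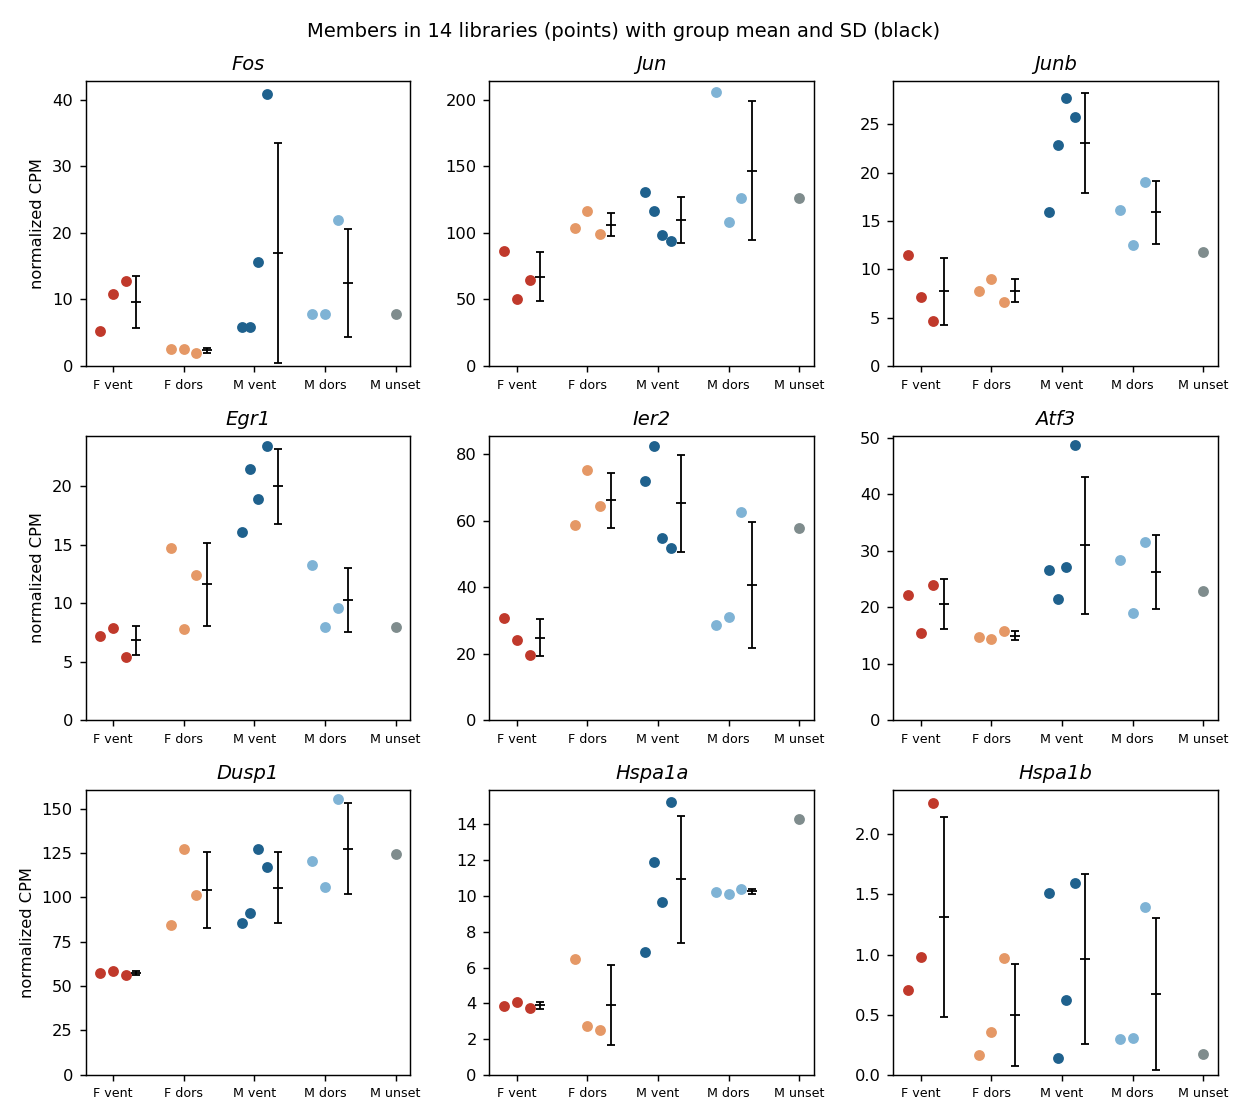
Level of each measured member in normalized CPM (vertical axis, from 0, its own scale in each panel) in the 14 libraries (points), by sex and side, with the group mean and SD in black. F and M stand for female and male, vent and dors for ventral and dorsal, and M unset for the unsettled library. *Ier2* and *Dusp1* of the 3 female ventral libraries lie under all 3 female dorsal ones, and *Junb* of every male library lies above every female one.

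Per kb of the longest transcript, *Dusp1* had the highest mean level over the 14 libraries, 43.6 normalized CPM per kb, followed by *Jun* at 34.2 and *Ier2* at 33.5. The next were *Atf3* at 11.97, *Junb* at 7.83 and *Fos* at 5.05 normalized CPM per kb. *Egr1* at 2.77 and *Hspa1a* at 2.70 came after these, and *Hspa1b* was lowest at 0.292. Neighbours in this order overlapped over the libraries, apart from *Hspa1b*, whose highest level, 0.806 per kb, was under the lowest of every other member. Reads per library ranged from 690 to 3265 for *Jun* and from 38 to 959 for *Fos*, but only from 3 to 38 for *Hspa1b*, which was at 3 reads in 2 libraries.

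*Fos* had the largest within-group SD of the members, 0.865 on the log2 scale, at percentile 96.6 of all genes. Its level ran from 1.92 in female dorsal 3 to 40.8 in male ventral 7, a 21.2-fold range. Apart from male ventral 7 its highest level was 21.9, in male dorsal 6, and the SD was not computed without male ventral 7. *Hspa1b* had a 16.1-fold range. *Dusp1* was the steadiest, with a within-group SD of 0.248, at percentile 26.7, and a 2.77-fold range over the libraries. The median within-group SD was 0.373 over the 9 members and 0.353 over all genes.

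No library was high or low for every member. Male ventral 7 had the highest level of 4 of the 9 members (*Fos*, *Egr1*, *Atf3* and *Hspa1a*) and was among the top 3 libraries for 6. Female ventral 3 had the lowest level of 4 members (*Junb*, *Egr1*, *Dusp1* and *Ier2*) and was among the bottom 3 for 6, yet held the highest *Hspa1b*. Male dorsal 4 had the highest *Jun*, at 206.

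**Figure D2:**
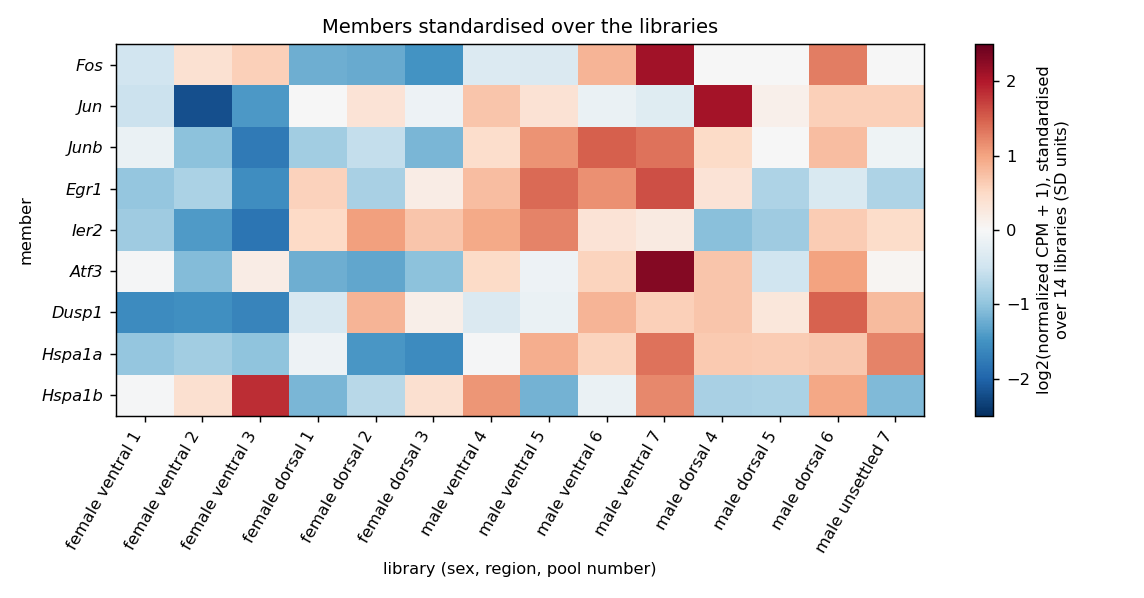
Level of each measured member (rows) in each of the 14 libraries (columns), as log2 of normalized CPM plus 1, standardised over the libraries (colour, SD units). Male ventral 7 is high for *Fos*, *Egr1*, *Atf3* and *Hspa1a*, and the female ventral libraries are low for *Dusp1* and *Ier2*, while *Fos* is lowest in the female dorsal ones.

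In female hearts the members moved in opposite directions. *Fos* was 3.02-fold higher ventrally, while *Ier2*, *Dusp1* and *Jun* were 2.62-, 1.78- and 1.61-fold higher dorsally. Of the 8 members tested, 4 were called at an adjusted p under 0.05, 1 higher ventrally and 3 higher dorsally. Among all 14411 genes tested, 27.8% were called (14.5% towards the ventral and 13.3% towards the dorsal side). The groups did not overlap for these 4 members, which was so for 44.8% of all genes. *Hspa1b* was too low in these libraries to be tested. Folds are on the scale of normalized CPM plus 1, tests are limma's, and positive log2 changes mean higher ventrally.

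Of the AP-1 subunits, *Fos* (chr 12, 85473890 to 85477273, plus strand) had levels of 5.24, 10.8 and 12.8 in female ventral pools 1 to 3 and of 2.61, 2.48 and 1.92 in female dorsal pools 1 to 3. The groups did not overlap, and each pool was higher ventrally. This gave a log2 change of 1.60 (SE 0.35, adjusted p = 0.00986), and it passed the test in each of 15 alternatives.

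*Jun* (chr 4, 95049034 to 95052222, minus strand) went the other way, with 86.7, 49.9 and 64.4 ventrally and 103, 116 and 99.2 dorsally. All 3 ventral libraries lay under the dorsal ones, with a log2 change of -0.69 (SE 0.19, adjusted p = 0.0263). The call was lost without female ventral 2 (adjusted p = 0.0940), female ventral 3 (0.0689), female dorsal 1 (0.0512) or female dorsal 2 (0.0864), and also after quantile normalization (0.0525) or without the variance trend (0.0686). A stretch of 5.53% of its 60-base windows is shared with *Junos*, a gene on the opposite strand.

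*Junb* (chr 8, 84974484 to 84978718, minus strand) was at 11.5, 7.12 and 4.604 ventrally and at 7.74, 9.01 and 6.66 dorsally. The dorsal values lay inside the ventral range, with a log2 change of -0.08 (95% interval -0.82 to 0.66, adjusted p = 0.879). *Junb* shares 5.36% of its windows with *Prdx2* on the opposite strand.

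*Atf3* (chr 1, 191170296 to 191218039, minus strand) was at 22.3, 15.5 and 23.9 ventrally and at 14.8, 14.3 and 15.8 dorsally. Each pool was higher ventrally, but female ventral 2 lay within the dorsal range. The log2 change of 0.41 (SE 0.22) had an adjusted p of 0.199 and was not called.

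*Egr1* (chr 18, 34859823 to 34864984, plus strand) was at 7.23, 7.84 and 5.43 ventrally and at 14.7, 7.76 and 12.4 dorsally. In pool 2 the levels of the sides were nearly equal, and in pools 1 and 3 the dorsal side was higher. The log2 change of -0.66 (SE 0.30) was not called (adjusted p = 0.128). It became -0.93 and was called once the trend on GC content and length was removed, with an adjusted p of 0.0350, or 0.0345 with the pool as a block.

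*Ier2* (chr 8, 84661331 to 84662852, minus strand) had the smallest p of the members here. Its levels were 30.7, 24.1 and 19.7 ventrally against 58.7, 75.2 and 64.6 dorsally, with no overlap. The log2 change was -1.39 (SE 0.19, adjusted p = 0.00137) and passed in each of 16 alternatives.

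*Dusp1* (chr 17, 26505590 to 26562128, minus strand) was nearly the same in the 3 ventral libraries, at 57.4, 58.2 and 56.0, and higher dorsally, at 84.4, 127 and 101. The groups did not overlap, and the log2 change was -0.83 (SE 0.16, adjusted p = 0.00580), called in each of 16 alternatives. *Dusp1* overlaps exons of *Ergic1* on the opposite strand, and the sources used here do not say if strand was used in counting.

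For the chaperone genes the female groups overlapped. *Hspa1a* (chr 17, 34969190 to 34972156, minus strand) was at 3.83, 4.08 and 3.72 ventrally and at 6.49, 2.75 and 2.52 dorsally, a log2 change of 0.08 (95% interval -0.72 to 0.87, adjusted p = 0.892). Its sign turned negative under 6 of 15 alternatives. *Hspa1b* (chr 17, 34956436 to 34959238, minus strand) was at 0.704, 0.976 and 2.26 ventrally and at 0.162, 0.354 and 0.973 dorsally, higher ventrally in each of the 3 pools (by 0.55, 0.55 and 0.72 on the log2 scale), with no test. *Hspa1a* shares 64.5% and *Hspa1b* 59.6% of its 60-base windows with the other gene, *Hspa1l* or *Gm20481*, so how reads were divided between the pair is uncertain.

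The female sides also differed in cell type markers. Of 10 epicardial markers, 9 were called higher ventrally, with summed levels of 1819 to 2893 ventrally and 346 to 661 dorsally. Of 8 fibroblast markers 5 were called higher ventrally (sums of 11545 to 22103 against 2904 to 4547), and of 6 macrophage markers also 5 (206 to 416 against 66.9 to 122). Of 6 smooth muscle and pericyte markers, 3 were called higher dorsally (1287 to 1603 against 746 to 1151). Of 10 cardiomyocyte markers 1 was called in each direction, yet 9 had values below 0 and the sums did not overlap, at 21067 to 30275 ventrally and 31682 to 44976 dorsally. None of the 6 blood endothelial markers was called by limma (unadjusted p of at least 0.0956, for *Pecam1*) and their sums overlapped (323 to 504 against 384 to 492), and of 6 erythroid markers 1 was called higher dorsally. The defining markers *Wt1*, *Col1a1* and *Csf1r* were above 0 in all libraries. The part of these cell types in the change of *Fos*, *Ier2*, *Dusp1* and *Jun* was not tested.

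In male hearts none of the 9 members was called between ventral and dorsal, and the same test called 0 of 14917 genes (0%). The edgeR count test also called 0, and 14% of genes, 2083, had an unadjusted p under 0.05, among them 2 members, *Egr1* and *Ier2*. Both had higher values ventrally, which for *Ier2* is the reverse of the female direction.

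Male *Fos* was at 5.86, 5.79, 15.6 and 40.8 in ventral pools 4 to 7 and at 7.83, 7.77 and 21.9 in dorsal pools 4 to 6. The groups overlapped, and in pools 4, 5 and 6 the ventral side was lower than its own dorsal side by 0.37, 0.37 and 0.46 on the log2 scale. The log2 change of 0.15 (95% interval -1.24 to 1.54, adjusted p = 0.932) rested on male ventral 7: without it the value was -0.40 (adjusted p = 0.804). The unsettled library was at 7.78.

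Male *Jun* was at 131, 117, 98.0 and 93.6 ventrally and at 206, 108 and 126 dorsally, with 126 in the unsettled library. The log2 change was -0.37 (95% interval -0.87 to 0.12, adjusted p = 0.461). Male *Junb* was at 15.9, 22.9, 27.8 and 25.8 ventrally and at 16.2, 12.5 and 18.99 dorsally, with 11.8 in the unsettled library, and its log2 change was 0.50 (95% interval -0.05 to 1.06, adjusted p = 0.395). Neither subunit separated the sides. Male *Atf3* was at 26.5, 21.5, 27.1 and 48.7 ventrally and at 28.4, 18.9 and 31.6 dorsally, with 22.9 in the unsettled library, a log2 change of 0.19 (adjusted p = 0.783) that was -0.04 without male ventral 7 (adjusted p = 0.968).

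Male *Egr1* was at 16.1, 21.4, 18.9 and 23.4 ventrally and at 13.3, 7.94 and 9.55 dorsally. The 4 ventral libraries lay above the 3 dorsal ones, a lack of overlap seen in this direction for 6.18% of all genes. The log2 change was 0.91 (SE 0.25, unadjusted p = 0.00428, adjusted p = 0.285), and 0.83 without male ventral 7. The unsettled library, at 7.98, was within the range of the dorsal ones.

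Male *Ier2* was at 72.0, 82.5, 54.7 and 51.7 ventrally and at 28.8, 30.9 and 62.6 dorsally, so male dorsal 6 lay within the ventral range. Its log2 change was 0.73 (SE 0.28, unadjusted p = 0.0250, adjusted p = 0.309). The unsettled library was at 57.7.

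Male *Dusp1* was at 85.7, 91.2, 127 and 117 ventrally and at 121, 106 and 155 dorsally, with 124 in the unsettled library. Its log2 change of -0.27 was not called (adjusted p = 0.525), yet each of the 3 pools with both sides was lower ventrally, as were the 3 female pools. *Dusp1* was the only member with the same sign in all 6 pools, the differences running from -1.11 in female pool 2 to -0.21 in male pool 5.

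Male *Hspa1a* was at 6.88, 11.9, 9.67 and 15.2 ventrally and at 10.2, 10.1 and 10.4 dorsally, with 14.3 in the unsettled library. The dorsal libraries agreed closely and lay inside the ventral range, and the log2 change was 0.04 (95% interval -0.61 to 0.68, adjusted p = 0.968). Male *Hspa1b* was at 1.51, 0.140, 0.618 and 1.60 ventrally and at 0.300, 0.308 and 1.40 dorsally, with 0.174 in the unsettled library. At this depth no regional difference of *Hspa1b* was detectable (log2 change 0.22, adjusted p = 0.833). No marker list had a called gene between the male sides. Summed epicardial markers overlapped, at 2128 to 6226 ventrally and 1690 to 4326 dorsally. Cardiomyocyte sums did not overlap, at 17487 to 32097 ventrally and 35764 to 44294 dorsally, with 9 of 10 markers below 0 and a median log2 change of -0.62.

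**Figure D3:**
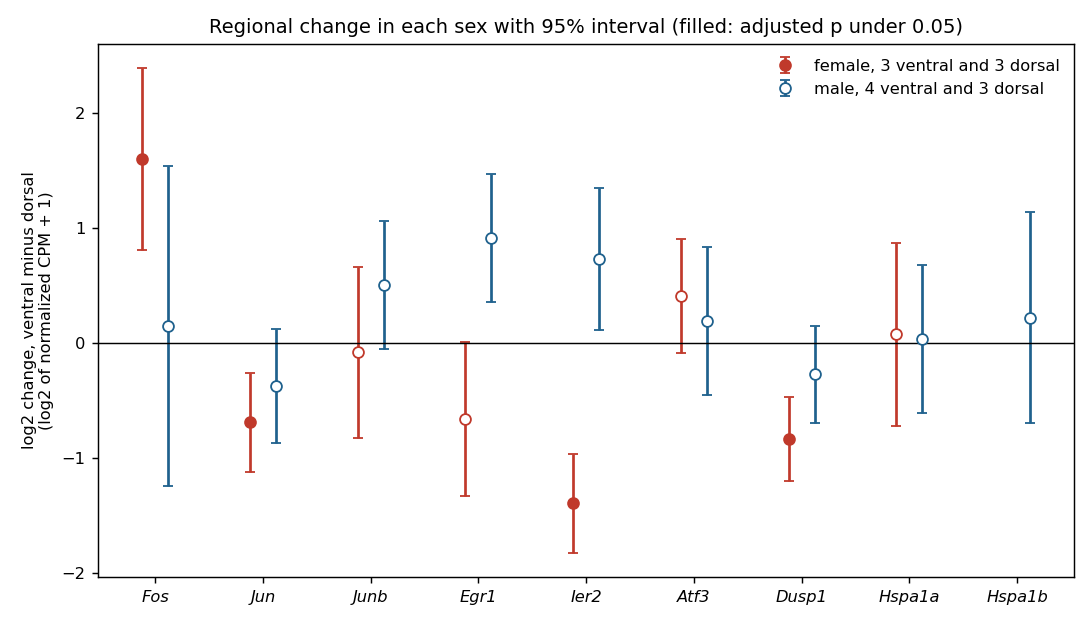
Ventral minus dorsal change of each member (log2 of normalized CPM plus 1) in female (red) and male (blue) libraries, with limma's 95% interval. Filled points had an adjusted p under 0.05. *Egr1* and *Ier2* lie on opposite sides of 0 in the sexes, and *Hspa1b* has no female value.

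The regional change itself differed between the sexes for *Ier2* and *Egr1*, both of which shifted towards the ventral side in males. These were 2 of the 9 members tested, beside 2.73% of 15772 genes called in that test and 2.12% in this direction. The change of *Ier2* was 2.12 log2 units higher in males than in females (SE 0.37, adjusted p = 0.00554). Within pools, its ventral minus dorsal difference was -0.91, -1.60 and -1.66 in female pools 1 to 3 and 1.29, 1.39 and -0.19 in male pools 4 to 6, so male pool 6 did not share the male direction. The *Ier2* call held in all 25 alternatives, with adjusted p from 0.000478 to 0.0230.

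The change of *Egr1* was 1.57 log2 units higher in males (SE 0.38, adjusted p = 0.0405). Its differences within pools were -0.93, 0.01 and -1.06 in females and 0.26, 1.33 and 0.92 in males. This call was close to the threshold. It was lost without any of 10 of the 13 libraries (adjusted p from 0.0626 to 0.111) and held only without female dorsal 2, male ventral 4 or male dorsal 4. It was also lost with the unsettled library taken as ventral (adjusted p = 0.152) and with the pool as a block (log2 difference 1.49, adjusted p = 0.0638).

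For *Fos* the pools split by sex, from 0.79 to 2.24 in female pools 1 to 3 and from -0.46 to -0.37 in male pools 4 to 6. Without the pairing of libraries by pool, the log2 difference of -1.45 (SE 0.82) was not called (adjusted p = 0.425). With the pool as a block it was -1.996 (SE 0.46) and was called (adjusted p = 0.0223), a fit in which male ventral 7 has no partner and does not bear on the change. Without male ventral 7 and without the block it was also -1.996, with an adjusted p of 0.138. *Dusp1* had a difference of 0.56 (95% interval 0.00 to 1.12, adjusted p = 0.320), and *Jun*, *Junb*, *Atf3*, *Hspa1a* and *Hspa1b* had adjusted p from 0.545 to 0.977.

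Over both sides, male hearts had higher levels of most members. In 8 of the 9 the change was above 0, as it was for 53.4% of all genes, and 5 were called, all higher in males: *Hspa1a*, *Junb*, *Atf3*, *Dusp1* and *Jun*. Among all 15772 genes the share called was 10.9%, with 4.4% above in males and 6.54% above in females. The median log2 change was 0.63 over the members and 0.03 over all genes. The test counted a pool's ventral and dorsal library as separate replicates. With the libraries of a pool averaged, only *Hspa1a* and *Junb* were called.

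*Junb* was at 7.76 ± 2.31 (SD, n = 6) in females and at 19.996 ± 5.65 (SD, n = 7) in males, where n counts libraries and not pools. Every male library lay above every female one, from 12.5 against at most 11.5, which was so in this direction for 1.29% of genes. With side as a covariate the log2 change was 1.24 (SE 0.22, adjusted p = 0.00199), and 1.19 without male ventral 7 (adjusted p = 0.00495). *Hspa1a* likewise did not overlap, at 3.90 ± 1.41 (SD, n = 6) in females, at most 6.49, and at 10.6 ± 2.53 (SD, n = 7) in males, at least 6.88. Its log2 change was 1.26 (SE 0.23, adjusted p = 0.00222), and 1.18 without male ventral 7 (adjusted p = 0.00515). Both passed in every alternative tried, 25 for *Junb* and 24 for *Hspa1a*. The near-identical *Hspa1b* was at 0.905 ± 0.740 (SD, n = 6) in females and at 0.838 ± 0.638 (SD, n = 7) in males, a log2 change of -0.07 (95% interval -0.65 to 0.50, adjusted p = 0.897).

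The other calls were smaller and their groups overlapped. *Dusp1* was at 80.8 ± 29.1 (SD, n = 6) in females and 115 ± 23.6 (SD, n = 7) in males, a log2 change of 0.59 (adjusted p = 0.0188) lost after removal of the GC and length trend (0.0523) and after averaging the libraries of a pool (0.0810). *Jun* was at 86.6 ± 25.1 (SD, n = 6) and 126 ± 38.1 (SD, n = 7), a log2 change of 0.58 (adjusted p = 0.0324) lost in 10 of 25 alternatives. Of these, 7 left out a library (female ventral 2 or 3, female dorsal 1 or 3, male ventral 4 or 5, or male dorsal 4) and gave adjusted p from 0.0502 to 0.0820. *Atf3* was at 17.8 ± 4.17 (SD, n = 6) and 29.0 ± 9.67 (SD, n = 7), a log2 change of 0.63 (adjusted p = 0.0464) lost in 14 of 25. It was lost without female ventral 1 or 2, female dorsal 1, 2 or 3, male ventral 6 or 7, or male dorsal 4 or 6 (adjusted p from 0.0612 to 0.106).

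*Fos*, at 5.97 ± 4.69 (SD, n = 6) in females and 15.1 ± 12.8 (SD, n = 7) in males, had a log2 change of 1.092 that was not called (adjusted p = 0.124). *Egr1* had one of 0.69 (adjusted p = 0.123) and *Ier2* one of 0.36 (adjusted p = 0.522). Of the 10 epicardial markers, 7 were also called higher in males, beside 4.4% of all genes. The part of these markers' cells in the changes of *Junb* and *Hspa1a* was not tested.

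Other genes of the same pathways were taken from lists of related genes. In female hearts the immediate early transcription factors again split: of 11 tested, 3 passed with more mRNA ventrally and 3 with more dorsally. Among all genes these shares were 14.5% and 13.3%. The median log2 change was -0.65 beside 0.01 over all genes. *Klf4*, a Krüppel-like factor, was 3.07-fold higher ventrally (log2 change 1.62, adjusted p = 0.000895), and its relative *Klf2* was 4.49-fold higher dorsally (-2.17, adjusted p = 0.000334). *Nfil3* was 2.09-fold higher dorsally (-1.06, adjusted p = 0.00337). *Klf2* is known for its induction by blood flow in endothelium. Its regional change was 2.25 log2 units higher in males (adjusted p = 0.000884), a difference of the same sign as that of *Ier2*. Within males, however, *Klf2* had a log2 change of 0.08 (adjusted p = 0.912), while that of *Ier2* was 0.73.

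Other AP-1 and CREB factors had 2 of 9 called in females, both higher ventrally, a share under the 27.8% of all genes, and 5 of the 9 had values below 0. *Fosl2*, a partner of Jun proteins related to Fos, was at 17.97, 30.5 and 29.4 ventrally against 7.37, 7.81 and 9.06 dorsally, a 2.90-fold difference (log2 change 1.54, adjusted p = 0.00305). *Batf*, another AP-1 factor, was 2.07-fold higher (1.05, adjusted p = 0.0378). *Fosl2* thus had the direction of *Fos* and not that of *Jun*.

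Of 12 dual-specificity phosphatases and Sprouty proteins, which limit MAP kinase signalling as *Dusp1* does, 2 were called in females, again a smaller share than the 27.8% of all genes. Values were above 0 in 6 and below 0 in 6, with a median log2 change of 0.08, and both called genes were higher ventrally, opposite to *Dusp1*. These were *Spry1* (log2 change 1.12, adjusted p = 0.0172) and *Spry2* (0.95, adjusted p = 0.0234). Of 20 immediate early effectors, 3 were called higher ventrally and 1 higher dorsally, beside 14.5% and 13.3% of all genes. *Per1*, a clock gene, had a log2 change of 1.37 (adjusted p = 0.00972), *Mcl1*, a survival factor, one of 1.24 (adjusted p = 0.000844), and *Gadd45g*, a stress sensor, one of -0.88 (adjusted p = 0.0138).

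Upstream of the response, among 15 genes of the serum response factor complex and the kinases, 2 were called higher ventrally and 3 higher dorsally in females. Among all genes, 14.5% and 13.3% were so called. The stress kinase gene *Mapk9* had a log2 change of -1.19 (adjusted p = 0.00113) and *Elk4*, a cofactor of serum response factor, one of 1.18 (adjusted p = 0.00367).

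Heat shock chaperones and their factors lay mostly on the dorsal side in females. Of 19 tested, 10 were called higher dorsally and 0 higher ventrally, beside 13.3% of all genes called higher dorsally, with a median log2 change of -0.53. *Hspb1*, a small heat shock protein, had a log2 change of -0.90 (adjusted p = 0.00652), although 48.2% of its windows are shared with other genes. *Hsph1* had one of -0.76 (adjusted p = 0.0483) and the co-chaperone *Chordc1* one of -0.67 (adjusted p = 0.00562). The inducible *Hspa1a* did not share this direction by its value of 0.08, a difference between genes that was not tested. Summed levels of the 19 were 6542 to 7551 ventrally and 8200 to 9071 dorsally. The summed cardiomyocyte markers given above were also higher dorsally, and their part in the chaperone levels was not tested. Of 11 genes of the integrated stress and unfolded protein response, 3 were called in each direction, beside 14.5% of all genes ventrally and 13.3% dorsally.

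In male hearts no gene of these 7 lists was called between the sides. By value, *Mcl1* had a log2 change of 0.53 (adjusted p = 0.285) and *Batf* one of 1.96 (adjusted p = 0.264). Of the 19 chaperones and factors, 17 had values below 0, with a median log2 change of -0.24 beside 0.03 over all genes.

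Between the sexes, values of the other immediate early genes were above 0 in 6 of 9 AP-1 and CREB factors, 8 of 11 transcription factors and 13 of 20 effectors, with median log2 changes of 0.18, 0.19 and 0.23 beside 0.03 over all genes, while the calls went both ways. Among all genes, 4.4% were called higher in males and 6.54% lower. The transcription factors had 2 of 11 called, both lower in males (*Klf2*, log2 change -1.39, adjusted p = 0.0116, and *Nr4a2*, -0.99, adjusted p = 0.0201). The AP-1 relative *Jund* was lower in males (-1.15, adjusted p = 0.00437), although 47.4% of its windows are shared with *Gm11175*. Of the 20 effectors, 3 were called higher and 4 lower in males. *Zfp36*, which destabilises short-lived mRNAs, was among the former, with a log2 change of 1.12 (adjusted p = 0.00298), and *Rhob* among the latter, with -1.14 (adjusted p = 0.000232). Of the 19 chaperones and factors, 3 were called higher, *Hspb1* (0.65, adjusted p = 0.00613), *Bag3* (0.63, adjusted p = 0.0206) and *Hsf1* (0.61, adjusted p = 0.0101), and 3 lower.

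**Figure D4:**
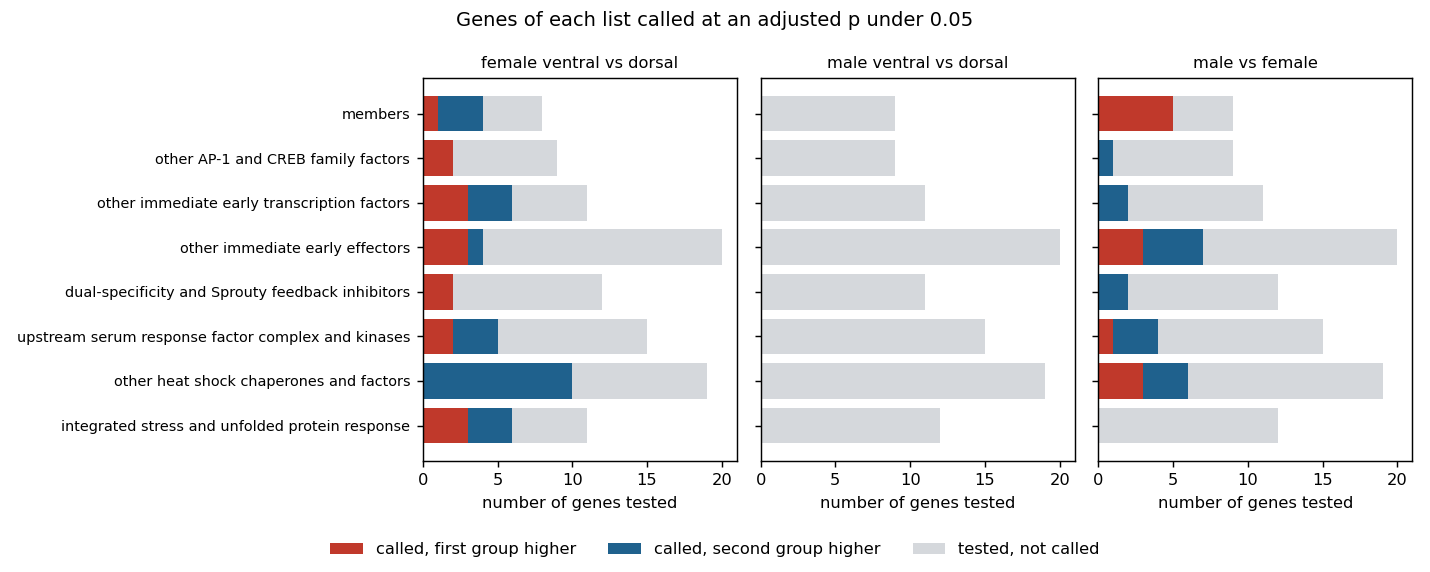
Number of genes tested in each list (bar length, horizontal axis from 0) and how many were called at an adjusted p under 0.05, with the group named first higher (red) or the group named second higher (blue), in 3 comparisons. The chaperones stand out with 10 genes higher dorsally in females, the members with 5 higher in males, and no gene is called between the male sides.

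The genes most like the members as a group were found by the correlation, over the 14 libraries, with the mean standardised level of the 9 members, among 9570 genes with a mean of at least 10. *Ppp1r15a*, which restarts translation after stress, came nearest (Pearson r = 0.944), followed by *Ccnd3* (0.931), *Zfp36* (0.928), *Arhgdia* (0.924) and *Tsc22d3* (0.907). The points share sex, side and depth, so these values are descriptions. Once the mean of each sex and side was removed (13 libraries), the nearest were *1810055G02Rik* (0.962), *Sars* (0.909), *Mtmr6* (0.909), *Zdhhc4* (0.900) and *Ypel5* (0.900), none of them in the earlier 5.

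The members themselves were followed unequally by the rest of the group. Over the 14 libraries, the correlation with the mean of the other members was 0.847 for *Junb*, 0.748 for *Atf3*, 0.711 for *Hspa1a*, 0.603 for *Egr1* and 0.596 for *Dusp1*. It was lower for *Fos* (0.469), *Jun* (0.402) and *Ier2* (0.324), and -0.09 for *Hspa1b*. With group means removed it was 0.721 for *Atf3*, 0.533 for *Fos*, 0.487 for *Junb* and 0.468 for *Dusp1*. It was then low for *Egr1* (0.192), *Hspa1a* (0.190), *Hspa1b* (0.103) and *Ier2* (0.015), and lowest for *Jun* at -0.13.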

How the data were processed

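RNA of the dissected epicardial and subepicardial layer was sequenced in 14 libraries. The authors removed adapters (Cutadapt) and short reads, ran RSEM against GRCm38 transcripts (version 1.3.1 in the submitters' processing notes), and used limma for normalization. The signal that was deposited is normalized CPM, listed for 15894 genes. Dividing out each library's scale returned whole reads for 100.0% of values (within 0.02 reads). Use of strand in counting is not given in the sources used here.

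Groups followed the labels, and the library whose labels disagree on side entered only alternatives. Groups were tested by limma (version 3.58.1, R version 4.3.3; linear models with a trended prior variance) on log2(value + 1), keeping genes that reached 1 in 3 or more of the libraries fitted, with Benjamini-Hochberg adjustment over all genes and calls under 0.05. Sexes were compared with side as a covariate, and the difference of the regional change in a fit of 4 groups. A test on recovered read counts with edgeR 4.0.16 was an alternative, beside another pseudocount (0.1), filter, scaling, variance model, GC and length correction, libraries left out, and the pool number as a block. Scripts were tested on simulated data with libraries drawn independently. At each size of change given below, 100 of 14411 to 15772 genes were changed. In the data themselves, 27.8% of genes were called between the female sides. Recovery at an adjusted p depends on the share of genes that change, so the shares below hold for the simulated setting only. At a simulated log2 change of 1, limma recovered 26% of changed genes between the female sides and 13% between the male sides. It recovered 37% between the sexes and 3% for the difference of the regional change. At a change of 2 these 4 shares were 67%, 59%, 79% and 51%. A gene that was not called may thus still differ. The deviations of a pool's ventral and dorsal library from their groups correlated across 15772 genes at 0.187, 0.169, 0.270, 0.427, 0.175 and 0.351 for pools 1 to 6. The same correlation was not computed between libraries of different pools, so these values have no reference and cannot be called particular to a pool. In the fit comparing the sexes, limma's consensus correlation within a pool was only 0.0124. The pool numbers were taken to pair libraries in the block, but the pairing is uncertain. The labels share the pool numbers between sides and do not say what they mark. Pools held separate pairs of hearts, so the spread within a sex and side is between pools. Over both sides of a sex, n counts libraries, so a pool can enter with both of its sides.

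Positions, lengths and shared windows of 60 bases came from GENCODE M21 (15877 identifiers found), promoters from RefSeq. Per kb levels use the longest transcript. Named genes are the members, the 3 called genes of each related list with the largest changes in a comparison (or the 2 with the smallest p where none was called), marker list totals with the leading genes of each, and the 5 genes most correlated with the members. A gene that this rule names is not reported here. The members and lists were chosen with earlier results of these data known. Depth limits *Hspa1b* most. Floors of 3 reads cover counting error only.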

Additional observations from a re-analysis of the deposited data

Results flagged for a closer look

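The regional change of *Ier2* was 2.12 log2 units higher in male than in female libraries, and that of *Egr1* was 1.57 higher. Both stand here because the test of the difference between the sexes passed its threshold, with adjusted p of 0.00554 and 0.0405 by limma. In females both values were below 0 (*Ier2* -1.39, *Egr1* -0.66) and in males above 0 (0.73 and 0.91), and only the female change of *Ier2* was called within a sex. Sex and the series of pools cannot be told apart. No single library of the 9 male ventral groups of values, the only groups of 4, lay far enough from the others to be listed here.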

How the results depend on the processing

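Over 35 results and 737 values from alternatives, 655 kept direction and side of the threshold, 44 lost the call, 4 gained it and 34 changed sign. No member that was called changed sign. The cause was not tested for any of these. Leaving out each library in turn gave 2158 (without female ventral 2) to 3845 calls over all genes in females, 0 to 12 (without male dorsal 6) in males, 260 (without female dorsal 2) to 447 for the difference between the sexes, and 267 without female ventral 2. Members called for that difference were 1 to 2, and between the sexes 3 (without female ventral 2, female dorsal 1 or 3, or male dorsal 4) to 5. Over all genes, the pool number as a block gave 76 calls in males and 804 for the difference, and with the GC and length trend removed too, 43 and 764. The male comparison had 1 call without the variance trend, 1 with GC and length removed and 1 without male dorsal 4. Members called between the sexes were 3 without the variance trend, 2 with GC and length removed and 2 with the libraries of a pool averaged, which gave 1053 calls over all genes. With the unsettled library as ventral, 1 member was called for the difference. The block changed the call of *Fos* (-1.996, adjusted p = 0.0223, and -2.09, 0.0205, with GC and length removed) and that of *Egr1* (1.49, adjusted p = 0.0638, but 1.64, 0.0355, with them removed) in that test. It changed no other call of a member.

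The other sign changes were of uncalled values near 0. Female *Hspa1a* was -0.19 after quantile normalization, -0.048 by edgeR and -0.0042 with GC and length removed, with or without the block, and ran from -0.12 to 0.43 with libraries left out. Female *Junb* ran from -0.38 to 0.20 in the same way. Male *Hspa1a* was -0.083 after quantile normalization, -0.091 with GC and length removed, -0.13 with the block, -0.25 with both, and -0.076 with the unsettled library as dorsal, and ran from -0.13 to 0.22. Male *Hspa1b* was -0.020 after quantile normalization and -0.038 with the block and GC and length removed. Male *Fos* was -0.40 with the block and -0.36 with both, and ran from -0.40 to 0.61. Male *Atf3* was -0.043 with the block and -0.0070 with both, and ran from -0.043 to 0.34. The difference of *Hspa1a* between the sexes was 0.11 after quantile normalization and by edgeR and 0.040 with the unsettled library as ventral, and ran from -0.39 to 0.15, and *Hspa1b* between the sexes ran from -0.22 to 0.079. Alternatives that filter on a mean of at least 10 give no value for low members, and *Hspa1b* has none in females.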
